A study of Mus musculus with 3 samples.

Results

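The cells described here are stromal barcodes of mouse inguinal fat that carried collagen RNA, almost no Pi16 or Dpp4 RNA, and RNA of at least 1 of Col15a1, Col4a1, Fabp4, Lpl, Sparcl1 and Cxcl14. The rule found 265 such barcodes (members) in the 2 libraries it names, out of 10789 barcodes in all 3 libraries of the series: 173 in the Pdgfrb-Cre; TERT fl/fl library (Pdgfrb-Cre) and 92 in the TERT +/+ library (wild type). Members were chosen by their own unique molecular identifiers (UMIs, each standing for 1 captured RNA molecule). They had at least 500 detected genes, at most 15% mitochondrial UMIs and a UMI for at least 4 of Col1a1, Col1a2, Col3a1, Dcn, Dpt, Lum, Pdgfra and Clec3b. They also had at most 1 UMI summed over Ptprc, Pecam1, Rgs5 and Upk3b, which mark leukocytes, endothelium, mural cells and mesothelium, and at most 1 UMI summed over Pi16 and Dpp4.

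The study asked how loss of telomerase in mesenchymal progenitors alters the RNA of fat tissue. Stromal and vascular cells of inguinal white fat were loaded into droplets after removal of dead and red cells, and RNA was captured from its 3' end. In Pdgfrb-Cre animals both copies of Tert, the catalytic subunit of telomerase, are floxed and are cut where the Pdgfrb promoter drives Cre, a promoter known to be active in mural cells as well as in fibroblastic stroma; for wild type the labels give intact Tert and name no Cre. Each genotype was 1 library. The age, sex, strain and number of the animals were not stated in any source used here, and the wild-type title carries the unexplained letters PBS. Genotype and library therefore cannot be told apart, and no test between them exists.

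Fat stroma holds Dpp4 and Pi16 progenitors, which lie in the connective sheaths, and preadipocytes within the lobules, close to capillaries and fat cells. The lobular preadipocytes are known for Icam1, for basement membrane collagens, and for lipid uptake genes such as Lpl and Fabp4 that come on ahead of fat storage. A further population, known for F3 and Fmo2, restrains adipogenesis in culture.

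Members held 1409250 UMIs in Pdgfrb-Cre and 285846 UMIs in wild type. Levels below are CPM, the UMIs of a gene summed over a group's barcodes and scaled to the group's total, and 1 UMI was worth 0.710 CPM in Pdgfrb-Cre members and 3.50 CPM in wild-type members. The median member had 7871 UMIs and 2414 genes in Pdgfrb-Cre, and 1779 UMIs and 849 genes in wild type. The 5 deepest members held 8.10% of member UMIs in Pdgfrb-Cre and 27.0% in wild type. Mitochondrial RNA took a median 3.26% of a member's UMIs in Pdgfrb-Cre and 3.53% in wild type. The 2 libraries shared 5 barcode sequences, none of them members. Intervals are at 95% and cover counting error only. A gene is called higher or lower when its ratio passed 2-fold after 10 CPM was added on both sides, and genes under 50 CPM in both groups were not compared. Sums over barcodes do not tell fewer cells with a transcript from less of it per cell.

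Members made up 29.9% of the stromal barcodes that passed the collagen and exclusion criteria in Pdgfrb-Cre (173 of 578, exact binomial interval 26.2 to 33.8) and 37.7% in wild type (92 of 244, 31.6 to 44.1). With every barcode thinned to 1500 UMIs the shares were 36.9% in Pdgfrb-Cre (212 of 574, 33 to 41.0) and 37.3% in wild type (53 of 142, 29.4 to 45.8); 13 stromal barcodes in Pdgfrb-Cre and 100 in wild type were too shallow to thin. Depth thus entered the rule: 48 of the thinned members in Pdgfrb-Cre and 5 in wild type had been above the Pi16 and Dpp4 limit before thinning. Just inside that limit, 30 stromal barcodes in Pdgfrb-Cre and 26 in wild type had 1 Pi16 or Dpp4 UMI. Just outside it, 15 in Pdgfrb-Cre and 19 in wild type had 2 such UMIs. Stromal barcodes with 2 or more (Pi16 or Dpp4 stroma, 399 in Pdgfrb-Cre and 119 in wild type) had a median of 34 in Pdgfrb-Cre and 5 in wild type. The other stromal barcodes, 6 in Pdgfrb-Cre and 33 in wild type, lacked all 6 marker genes.

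**Figure D1:**
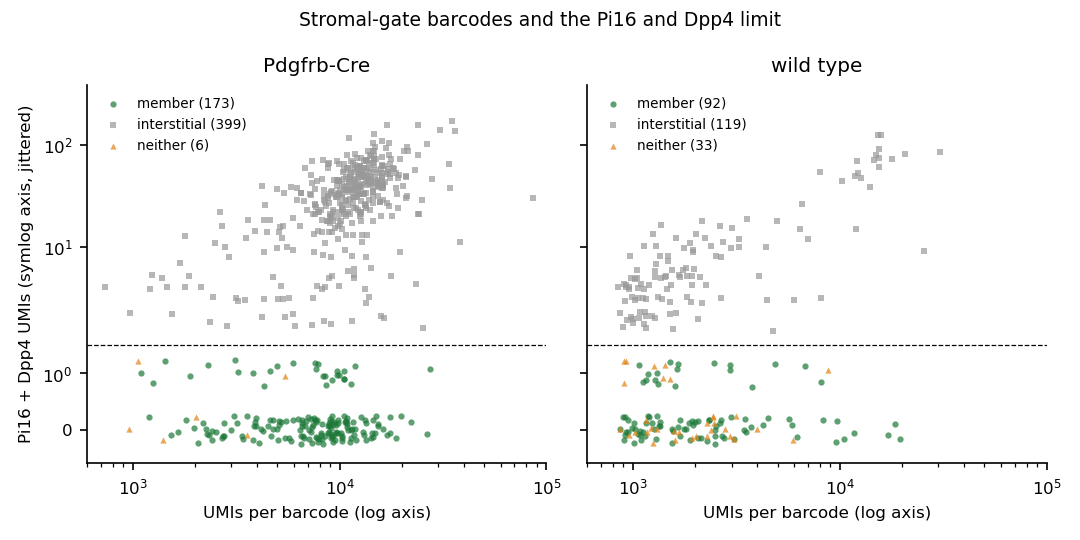
Each point is 1 stromal barcode, with UMIs per barcode on the horizontal log axis and summed Pi16 and Dpp4 UMIs on the vertical axis (linear near 0, then log, with points jittered), in Pdgfrb-Cre (left) and wild type (right); the dashed line is the limit of the rule. Grey squares above it are Pi16 or Dpp4 stroma ("interstitial" in the key), 399 barcodes in Pdgfrb-Cre with a median of 34 Pi16 and Dpp4 UMIs and 119 in wild type with a median of 5, and members below it were deeper in Pdgfrb-Cre (median 7871 UMIs) than in wild type (1779 UMIs).

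The 6 marker genes that chose the members were spread unevenly over the libraries. Members carried a median of 5 of the 6 genes in Pdgfrb-Cre and of 2 in wild type. All 6 were seen in 66 members (38.2%) of Pdgfrb-Cre and 5 members (5.43%) of wild type. None rested on a single marker UMI in Pdgfrb-Cre, while 22 (23.9%) did in wild type. As a description of the rule, Col15a1, a basement membrane collagen, stood at 258 CPM (232 to 285) in Pdgfrb-Cre and 196 CPM (148 to 254) in wild type. Sparcl1, a secreted matrix protein, stood at 1507 CPM in Pdgfrb-Cre against 444 CPM in wild type. Lpl, the lipase that frees fatty acids from lipoproteins, stood at 1489 CPM in Pdgfrb-Cre against 1767 CPM in wild type. Cxcl14, a chemokine, stood at 870 CPM in Pdgfrb-Cre against 360 CPM in wild type, and in wild type it did not set members apart, since Pi16 or Dpp4 stroma there held 262 CPM. Pi16, a peptidase inhibitor, was left with 16 UMIs in Pdgfrb-Cre members and 12 in wild-type members.

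Committed preadipocyte and interstitial progenitor genes that the rule did not name went the way of the label. Of 14 committed preadipocyte genes outside the rule, 10 were measurable against Pi16 or Dpp4 stroma in each library. In Pdgfrb-Cre 9 of the 10 were higher in members (median log2 ratio 2.33), against 6.69% of all genes, and in wild type 10 of 10 were (2.39), against 9.81% of all genes. Of 17 interstitial progenitor genes outside the rule, 17 of 17 measurable were lower in members in Pdgfrb-Cre, against 9.01% of all genes, and 15 of 16 in wild type, against 7.4%. Basement membrane genes outside the rule differed less. In Pdgfrb-Cre 3 of 11 were higher and 0 lower in members (median 0.56), against 6.69% of all genes higher and 9.01% lower. In wild type 2 of 11 were higher and 1 lower (median -0.056), against 9.81% of all genes higher and 7.4% lower. These counts describe barcodes that were divided on their own RNA. Most genes of mature fat cells were at or near 0, with 5 of 10 at 0 in Pdgfrb-Cre members and 7 of 10 in wild-type members. Adipoq, the hormone adiponectin, had 2 UMIs in Pdgfrb-Cre members and 0 in wild-type members, and Cidec, Lep, Retn, Cfd and Pck1 had 0 in both. Car3, an abundant carbonic anhydrase of fat cells, had 18 UMIs in Pdgfrb-Cre members and 69 UMIs in wild-type members, where 98.6% came from 1 barcode. Pparg, the master factor of adipogenesis, had 57 UMIs (40.4 CPM, 30.6 to 52.4) in Pdgfrb-Cre members and 3 UMIs (10.5 CPM, 2.16 to 30.7) in wild-type members.

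RNA of the F3 population was present as well, and the rule did not separate it. F3, the initiator of blood clotting, stood at 334 CPM in members against 60.4 CPM in the other stroma in Pdgfrb-Cre, and at 154 against 116 CPM in wild type. Of its list 7 of 8 genes were higher in members in Pdgfrb-Cre, against 6.69% of all genes, and 3 of 6 in wild type, against 9.81%. In Pdgfrb-Cre the 117 members with an F3 UMI held 326 CPM of Fmo2, a flavin monooxygenase, against 76.0 CPM in the 56 without one. Gdf10, a secreted factor of the TGF-beta family, stood at 305 CPM with F3 against 86.1 CPM without. In wild type the 24 members with an F3 UMI held 161 CPM of Fmo2 and 413 CPM of Gdf10, against 42.0 and 119 CPM in the 68 without. Both genes were thus higher where F3 was seen. Depth moved with it, at a median of 8800 UMIs with F3 against 6127 without in Pdgfrb-Cre, and 3629 with against 1557 without in wild type; its part was not tested.

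Against Pi16 or Dpp4 stroma of their own library, 82 of 2654 genes measurable in both libraries were higher in members in both (3.09%) and 127 were lower in both (4.79%). Matrix and lipid transport genes led the higher ones. Col4a2, which pairs with the rule gene Col4a1 in collagen IV and adjoins it on chromosome 8 (GRCm38, 11312805 to 11449287), stood at 1041 CPM in members against 56.7 CPM in the other stroma in Pdgfrb-Cre, and at 434 against 44.7 CPM in wild type. Apoe, a lipid carrier, stood at 1510.0 CPM in members against 203 CPM in the other stroma in Pdgfrb-Cre, and at 8826 against 382 CPM in wild type. Mgp, an inhibitor of calcification, stood at 1412 CPM in members against 196 CPM in the other stroma in Pdgfrb-Cre, and at 1217 against 150 CPM in wild type. Members stood above the other stroma in both libraries, though for Mgp the log2 ratio was as low as 1.15 in Pdgfrb-Cre and 1.94 in wild type under other settings. Vcam1, an adhesion receptor for leukocytes, stood at 287 CPM in members against 43.4 CPM in the other stroma in Pdgfrb-Cre, and at 178 against 22.3 CPM in wild type. Its wild-type log2 ratio of 2.54 fell to 0.81, under 2-fold, at its weakest setting. Enpp2, the enzyme that makes lysophosphatidic acid, stood at 250 CPM in members against 38.4 CPM in the other stroma in Pdgfrb-Cre, and at 171 against 16.2 CPM in wild type. Inmt, Nrep, Mmp3, Cp and Col5a3 completed the 10 highest. The wild-type log2 ratios of Cp and Mmp3 also fell under 2-fold at their weakest settings, to 0.904 for Cp and 0.996 for Mmp3.

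Most of the 10 lowest genes had few UMIs in members. Krtdap, a small secreted protein known from skin, had 0 UMIs in members of either library, against 430 CPM in Pi16 or Dpp4 stroma of Pdgfrb-Cre and 254 CPM in that of wild type. Dmkn, known from the same setting, had 1 UMI in members against 3985 UMIs in the other stroma in Pdgfrb-Cre, and 6 against 146 UMIs in wild type. Sbsn had 14 UMIs in members against 4839 in the other stroma in Pdgfrb-Cre, and 4 against 288 in wild type. These 3 genes lie together on chromosome 7 of GRCm38, between 30751471, the start of Sbsn, and 30791097, the end of Krtdap. Aldh1a3, which makes retinoic acid, had 7 UMIs in members against 1899 in the other stroma in Pdgfrb-Cre, and 1 against 113 in wild type. Anxa3, a membrane-binding annexin, stood at 75.2 CPM in members against 1344 CPM in the other stroma in Pdgfrb-Cre, and at 80.5 against 1366 CPM in wild type. Efhd1, Car8, Pcsk6, Ctla2a and Smpd3 completed the group. For Ctla2a in Pdgfrb-Cre the log2 ratio of -3.03 was 0 at its weakest setting.

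**Figure D2:**
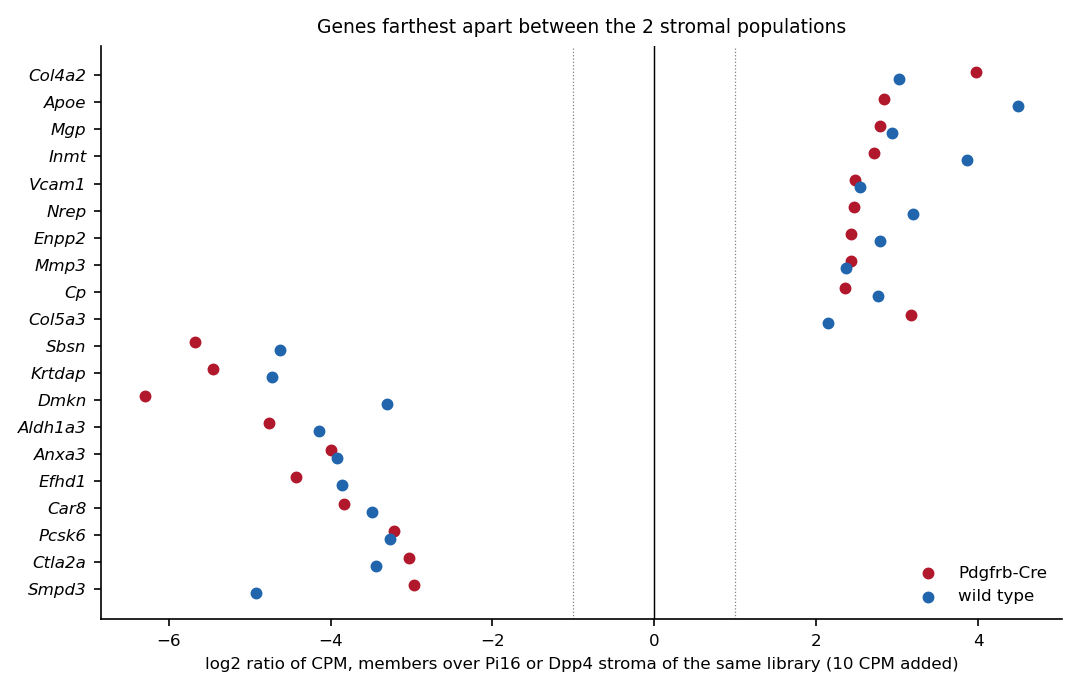
Log2 ratio of CPM in members over Pi16 or Dpp4 stroma of the same library for the 10 highest and 10 lowest genes, with Pdgfrb-Cre and wild type as separate points and dotted lines at 2-fold. All 20 genes lie beyond 2-fold on the same side in both libraries, for which they were chosen, Col4a2 at 3.98 in Pdgfrb-Cre and 3.02 in wild type and Dmkn at -6.29 in Pdgfrb-Cre and -3.31 in wild type.

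Tert was too rare in members to show the deletion. It had 0 UMIs in Pdgfrb-Cre members, which allows up to 2.13 CPM at 3 UMIs, and 1 UMI in wild-type members (3.50 CPM, 0.0886 to 19.5). The deleted exons were not stated in the labels, and a tag at the 3' end may lie outside them, so this count does not check the genotype. Of 20 telomere maintenance genes only Atrx and Nop10 reached 50 CPM, and neither was called, with log2 ratios of -0.37 and 0.16 between the libraries. Pdgfrb, the gene whose promoter drives Cre, stood at 247 CPM (222 to 274) in Pdgfrb-Cre and 189 CPM (142 to 246) in wild-type members.

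Between the libraries, 352 of 3323 genes (10.6%) were higher and 271 (8.16%) lower in Pdgfrb-Cre members than in wild-type members, with an all-gene median log2 ratio of -0.04. Scaled to UMIs outside mitochondrial and ribosomal protein genes, 359 were higher and 423 lower and that median was -0.16, so the balance of directions depends on the scaling. The same ratio in other barcodes of the 2 libraries gives the background of the libraries themselves. It was past 2-fold higher for 12.8% and lower for 3.82% of genes in Pi16 or Dpp4 stroma, higher for 7.78% and lower for 5.16% in leukocyte barcodes, and higher for 5.77% and lower for 2.52% in endothelial barcodes. A gene at 0 UMIs in 1 library is given a bound, computed against 3 UMIs of that library.

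Many chemokines and cytokines were higher in Pdgfrb-Cre members. Of 21 measurable inflammatory genes 13 were called higher and 2 lower in Pdgfrb-Cre members, with a median log2 ratio of 1.25. Only 17 genes of the list reached 50 CPM in wild-type members or wild-type Pi16 or Dpp4 stroma. Genes of the 21 outside those 17 passed the limit only through Pdgfrb-Cre members, so their direction was fixed by it. With no minimum level the list median was 0.91. Cxcl1, a neutrophil attractant, stood at 5760 CPM (5635 to 5887) in Pdgfrb-Cre members, from 132 of 173 barcodes, against 168 CPM (124 to 223) in wild-type members, from 10 of 92 barcodes, a 34.3-fold ratio (25.8 to 46.6). Cxcl2, its neighbour and relative, stood at 810 CPM from 35 barcodes in Pdgfrb-Cre members and had 0 UMIs in wild-type members, at least 77.2-fold higher. Cxcl1 was thus spread over most Pdgfrb-Cre members and Cxcl2 over a minority. Il6, a cytokine of the acute phase, stood at 372 CPM in Pdgfrb-Cre against 42.0 CPM in wild type, where it came from 2 barcodes. Tnfaip6, a hyaluronan-binding protein, stood at 1637 CPM in Pdgfrb-Cre against 133 CPM in wild type. Ccl2, a monocyte attractant, stood at 2496 CPM in Pdgfrb-Cre against 395 CPM in wild type, and its relative Ccl7 at 1321 CPM in Pdgfrb-Cre against 157 CPM in wild type. Not every ligand followed. Cxcl12, which retains blood progenitors and lymphocytes, stood lower, at 707 CPM in Pdgfrb-Cre against 2099 CPM in wild type. Cxcl10, an interferon-induced chemokine, was level at 120 CPM in Pdgfrb-Cre against 119 CPM in wild type. Cxcl5 stood at 41.2 CPM in Pdgfrb-Cre against 322 CPM in wild type, with 84.8% of its wild-type UMIs from 1 barcode.

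Feedback genes of NF-kappaB, the factor that drives many of these ligands, were higher in 6 of 11 measurable cases and lower in 0. Their median was 1.71, and 0.65 with no minimum level. Only 7 genes of this list reached 50 CPM in wild-type members or wild-type Pi16 or Dpp4 stroma. Genes of the 11 outside those 7 passed the limit only through Pdgfrb-Cre members, so their direction was fixed by it. Nfkbiz, an inducible co-regulator, stood at 360 CPM in Pdgfrb-Cre against 38.5 CPM in wild type. Icam1, an adhesion receptor that also marks committed preadipocytes, stood at 507 CPM in Pdgfrb-Cre against 105 CPM in wild type. Neither list was confined to members. The NF-kappaB feedback median was 2.02 in Pi16 or Dpp4 stroma, 0.93 in endothelial barcodes and 0.82 in leukocyte barcodes. The inflammatory median was 3.02 in Pi16 or Dpp4 stroma, 1.97 over 8 genes in endothelial barcodes and 1.5 over 4 genes in leukocyte barcodes. Ccl2 shows the larger span in the other stroma, at 3976 CPM in Pdgfrb-Cre against 22.3 CPM in wild type. Within Pdgfrb-Cre, members held less Ccl2 than that stroma, and within wild type more.

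Promoter stretches are shown for 3 of these genes because they were high together and hold the same run of letters, a form of the NF-kappaB site: GGGA, any 2 bases, then TTCC. Windows of 300 bases around each start came from RefSeq (GRCm38.p6) and were searched on both strands; the run was chosen after levels were seen and other runs had been tried. It was found in 5 of 21 inflammatory genes with a window (Csf1, Cxcl1, Cxcl10, Cxcl2 and Il6), in 2 of 10 NF-kappaB feedback genes (Nfkb2 and Nfkbia) and in 1.47% of all 32851 windows. A gene was counted when any of its windows held the run, while the last share counts single windows, so the units differ. Each stretch is 60 bases of the plus strand, 5' to 3', upstream of the start, with the match in capitals, at chr5:90891149-90891208 for Cxcl1, chr5:90903777-90903836 for Cxcl2 and chr5:30013045-30013104 for Il6.
Cxcl1: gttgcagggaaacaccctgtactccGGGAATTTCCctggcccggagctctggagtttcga
Cxcl2: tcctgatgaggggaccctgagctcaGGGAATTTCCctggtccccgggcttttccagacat
Il6: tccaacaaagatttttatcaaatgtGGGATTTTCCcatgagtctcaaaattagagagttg
In Cxcl1 and Cxcl2 the run matched on both strands, and in Il6 on the one shown. A match describes the window and shows no binding, and Cxcl10, which holds the run too, was level between the libraries.

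Immediate early genes, which answer many stimuli and also tissue dissociation, were higher in 19 of 22 measurable cases and lower in 0, with a median of 1.70. Only 20 genes of the list reached 50 CPM in wild-type members or wild-type Pi16 or Dpp4 stroma. Genes of the 22 outside those 20 passed the limit only through Pdgfrb-Cre members, so their direction was fixed by it. With no minimum level the list median was 1.61. Fosb, a subunit of the AP-1 factor, stood at 3711 CPM (3611 to 3813) in Pdgfrb-Cre and 371 CPM (304 to 449) in wild type. Atf3, a stress factor, stood at 771 CPM in Pdgfrb-Cre against 73.5 CPM in wild type, with 76.2% of the wild-type UMIs from 1 barcode. Klf4, a zinc finger factor, stood at 2855 CPM in Pdgfrb-Cre against 346 CPM in wild type. The group was higher in the other stroma as well, with medians of 1.92 in Pi16 or Dpp4 stroma, 0.59 in endothelial barcodes and 0.40 in leukocyte barcodes. Ifrd1, a co-regulator of transcription, stood at 978 CPM in Pdgfrb-Cre against 84.0 CPM in wild type, and Tnfrsf12a, the receptor of the cytokine TWEAK, at 366 CPM in Pdgfrb-Cre against 28 CPM in wild type. Csrnp1, a nuclear protein, had 341 UMIs in Pdgfrb-Cre members against 4 in wild-type members. Noct, a deadenylase-related protein of the circadian clock, had 148 UMIs in Pdgfrb-Cre members and 0 in wild-type members, at least 10.0-fold higher.

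Some stress and detoxification genes were higher in Pdgfrb-Cre members. Of 17 oxidative stress genes 7 were higher and 0 lower (median 0.73), and of 18 heat shock genes 7 were higher and 1 lower (0.71). Only 13 oxidative stress genes reached 50 CPM in wild-type members or wild-type Pi16 or Dpp4 stroma. Genes of the 17 outside those 13 passed the limit only through Pdgfrb-Cre members, so their direction was fixed by it. With no minimum level the oxidative stress median was 0.41. Hmox1, the heme-degrading enzyme, had 410 UMIs in Pdgfrb-Cre members against 4 in wild-type members, a 20.8-fold ratio (8.06 to 76.7). The metallothioneins Mt1 and Mt2, near-identical metal-binding proteins whose reads may be divided uncertainly, stood at 6056 CPM in Pdgfrb-Cre against 626 CPM in wild type for Mt1 and at 1896 CPM in Pdgfrb-Cre against 206 CPM in wild type for Mt2. Mt1 was also higher elsewhere, with log2 ratios of 3.25 in members, 3.07 in Pi16 or Dpp4 stroma, 2.03 in endothelial barcodes and 1.99 in leukocyte barcodes.

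The sterol synthesis genes that reached the level limit were higher in Pdgfrb-Cre members. The list was chosen after Idi1 and Hmgcs1 had come out among the highest genes, so its count is no independent evidence. Of 24 genes 9 reached 50 CPM, each with between 0 and 6 UMIs in wild-type members. These 9 passed the limit only through Pdgfrb-Cre members, so that their direction was fixed by the limit, and the count of 9 called higher and its median of 2.61 support nothing. With no minimum level the list median was 1.14. Hmgcs1, which makes the precursor HMG-CoA, had 404 UMIs (287 CPM, 259 to 316) in Pdgfrb-Cre members and 6 UMIs (21.0 CPM, 7.70 to 45.7) in wild-type members, a 13.7-fold ratio (6.22 to 37.4). Idi1, an isomerase of the pathway, had 189 UMIs in Pdgfrb-Cre members and 0 in wild-type members, at least 12.8-fold higher. Sqle, which oxidises squalene, had 102 UMIs in Pdgfrb-Cre members and 1 in wild-type members, a ratio of 20.7 (3.63 to 825).

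Within Pdgfrb-Cre, Hmgcs1 stood at 287 CPM in members against 62.9 CPM in Pi16 or Dpp4 stroma. Between the libraries Hmgcs1 had a log2 ratio of 3.26 in members, 1.0 in that stroma, 0.21 in leukocyte barcodes and 0.11 in endothelial barcodes.

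The Hmgcs1 window is shown because it holds a core of the sterol response element, TCACNCCAC, where N is any base. Searched on both strands, it was found in 1 of 16 sterol genes with a window and in 1.24% of all windows. Here too the first count is of genes with any matching window and the share is of single windows. The stretch is the plus strand, 5' to 3', at chr13:119690189-119690247 (GRCm38.p6, RefSeq), upstream of the start, with the match in capitals.
Hmgcs1: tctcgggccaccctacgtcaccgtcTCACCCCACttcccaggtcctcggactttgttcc
A window without these letters says nothing about the factor.

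Cdkn1a and several adipogenic genes were higher in Pdgfrb-Cre members. Cdkn1a, the cell cycle inhibitor p21, stood at 464 CPM (429 to 501) in Pdgfrb-Cre members, from 130 barcodes, against 52.5 CPM (29.4 to 86.6) in wild-type members, from 6 barcodes. Its log2 ratio was 2.92 in members, 2.0 in Pi16 or Dpp4 stroma, 1.98 in leukocyte barcodes and 1.49 in endothelial barcodes. Gdf15, a stress hormone, stood at 182 CPM from 37 barcodes in Pdgfrb-Cre members and had 0 UMIs in wild-type members, at least 17.3-fold higher. Of 23 p53 target genes 6 were measurable, of which 4 were higher and 0 lower (median 1.26, and 0.28 with no minimum level). Only 4 genes of the p53 list reached 50 CPM in wild-type members or wild-type Pi16 or Dpp4 stroma. Genes of the 6 outside those passed the limit only through Pdgfrb-Cre members, so their direction was fixed by it. Of 13 other measurable senescence genes 2 were higher and 3 lower (median 0.016), against 10.6% of all genes higher and 8.16% lower. Bax, a cell death gene among the measurable p53 targets, was level at 75.9 CPM in Pdgfrb-Cre against 77.0 CPM in wild type. Of 9 adipogenic factors 6 were higher and 0 lower (median 1.24, and 0.52 with no minimum level). Klf4, given above with the immediate early genes, had the largest log2 ratio of the 9, at 3.01. Pparg was under 50 CPM in both libraries and was not among them. Only 8 genes of the list reached 50 CPM in wild-type members or wild-type Pi16 or Dpp4 stroma. Any of the 9 outside those 8 passed the limit only through Pdgfrb-Cre members. The rise of the adipogenic list was not confined to members. The median of this list was 1.34 over 8 genes in Pi16 or Dpp4 stroma, 0.46 over 8 in leukocyte barcodes and -0.06 over 10 in endothelial barcodes. Cebpb, an early factor of adipogenesis, stood at 1561 CPM in Pdgfrb-Cre against 273 CPM in wild type, while Ebf1, another, was level at 625 CPM in Pdgfrb-Cre against 780 CPM in wild type. Hsd11b1, which regenerates active glucocorticoid, stood at 365 CPM in Pdgfrb-Cre against 87.5 CPM in wild type. Plin2, a coat protein of lipid droplets, stood at 334 CPM in Pdgfrb-Cre against 94.5 CPM in wild type. Timp3, an inhibitor of matrix proteases, stood at 810 CPM in Pdgfrb-Cre against 77.0 CPM in wild type; in Pi16 or Dpp4 stroma it was near level, with a log2 ratio of 0.49.

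**Figure D3:**
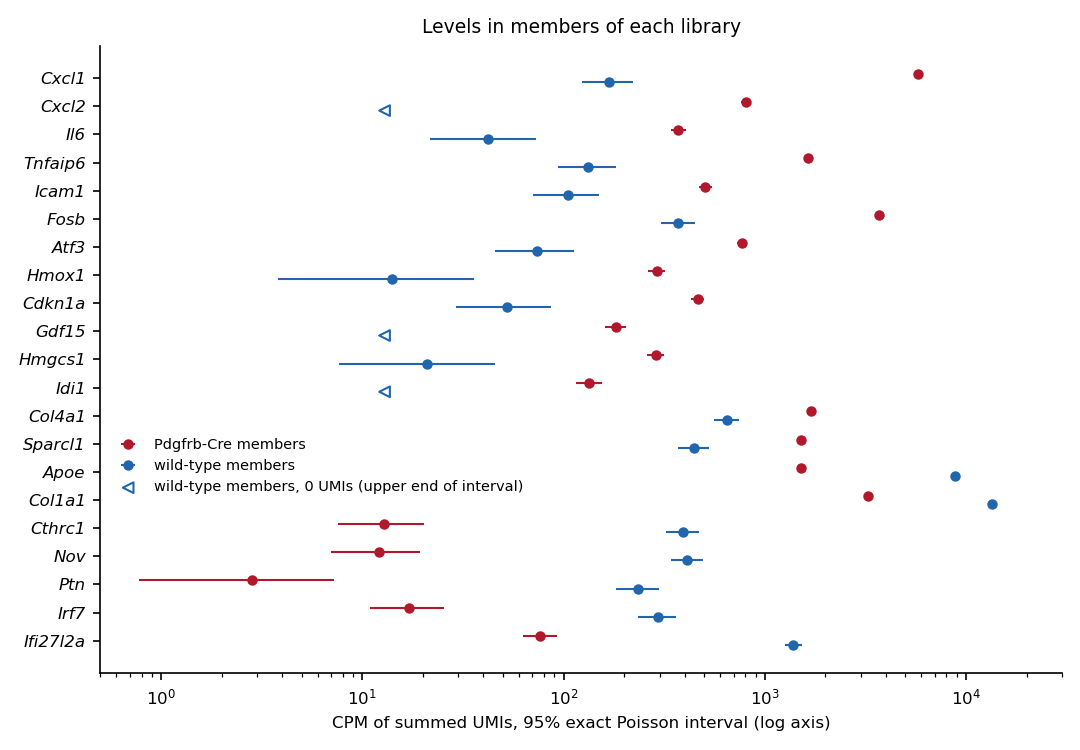
CPM with exact 95% Poisson intervals on a log axis in Pdgfrb-Cre members (upper point of each pair) and wild-type members (lower point) for 21 genes; open triangles mark the upper interval end where a library had 0 UMIs. The intervals of the 2 libraries lie apart in each gene shown, from Cxcl1 (5760 CPM in Pdgfrb-Cre against 168 CPM in wild type) to Ifi27l2a (76.6 against 1389 CPM in the same libraries); they cover counting error only, and the genes were picked for their differences.

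The committed preadipocyte list was divided between the libraries. Of 12 measurable genes outside the rule 4 were higher and 3 lower in Pdgfrb-Cre members, with a median of 0.26. Apoe was lower, at 1510.0 CPM in Pdgfrb-Cre against 8826 CPM in wild type, a log2 ratio of -2.54 in members, -0.88 in Pi16 or Dpp4 stroma, -0.95 in leukocyte barcodes and 0.01 in endothelial barcodes. Cd36, a fatty acid receptor, was lower at 16.3 CPM in Pdgfrb-Cre against 122 CPM in wild type, and Igf1, a growth factor, at 264 CPM in Pdgfrb-Cre against 626 CPM in wild type. Dlk1, which holds preadipocytes back from differentiating, was under 50 CPM in both libraries and so was not compared. It had 0 UMIs in Pdgfrb-Cre members and 11 in wild-type members. Basement membrane genes were higher in 4 of 13 cases and lower in 0 (median 0.46). Without the genes of the rule 3 of 11 were higher and 0 lower, also with a median of 0.46. Of all genes 10.6% were higher and 8.16% lower. Lama2, a laminin chain, led the basement membrane genes at 357 CPM in Pdgfrb-Cre against 129 CPM in wild type. Col4a1, a gene of the rule, stood at 1702 CPM in Pdgfrb-Cre against 647 CPM in wild type.

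Collagens of the fibrillar, fibril-associated and type VI kinds ran the other way, with 5 of 12 lower and 0 higher in Pdgfrb-Cre members and a median of -0.74. Without the genes of the rule 3 of 9 were lower and 0 higher, with a median of -0.27. Col1a1, the main chain of type I collagen, stood at 3261 CPM (3168 to 3357) in Pdgfrb-Cre and 13395 CPM (12974 to 13826) in wild type. Col3a1, of type III collagen, stood at 9141 CPM in Pdgfrb-Cre against 17667 CPM in wild type; both are genes of the rule. Type VI chains were not called, with Col6a1 at 1289 CPM in Pdgfrb-Cre against 983 CPM in wild type. The median was -0.48 in Pi16 or Dpp4 stroma, and in members it was 0.15 when barcodes with a Cthrc1 or Nov UMI were left out.

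Those barcodes are a share of the wild-type members that Pdgfrb-Cre members held far less of. Cthrc1, a secreted protein of injury-responsive fibroblasts, had a UMI in 4 of 173 Pdgfrb-Cre members (2.31%) and 25 of 92 wild-type members (27.2%). Pdgfrb-Cre members were the deeper. Among leukocyte barcodes 0.0424% in Pdgfrb-Cre and 0.370% in wild type had a Cthrc1 UMI, at median depths of 6007 UMIs in Pdgfrb-Cre and 4652 UMIs in wild type. Leukocyte barcodes were chosen to hold at most 1 stromal rule gene, so they cannot show how much stromal RNA strayed between barcodes. The part of depth or of stray RNA in the Cthrc1 difference was not tested. Nov, a matricellular protein, stood at 12.1 CPM in Pdgfrb-Cre against 413 CPM in wild type, and its log2 ratio of -4.26 was -0.98 without members carrying leukocyte RNA as defined below. In wild type the 25 members with Cthrc1 held 23755 CPM of Col1a1 against 9273 CPM in the 67 without, and 1315 CPM of Nov against 53.8 CPM. They held 27 of 30 member UMIs of Top2a, a topoisomerase of dividing cells. They also held 46 of 50 member UMIs of Tnc, a matrix protein of repair, though 66.0% of those 50 came from 1 barcode. The same 25 were poor in preadipocyte RNA, with 307 CPM of Lpl against 2348 CPM in the others, 270 CPM of Apoe against 12231 CPM, and 0 CPM of Inmt against 1051 CPM. Wild-type members thus differed widely among themselves.

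The proliferation genes low in Pdgfrb-Cre members depended in part on those barcodes. Of 10 measurable proliferation genes 6 were lower and 0 higher (median -2.0). In Pdgfrb-Cre only 4 genes of this list reached 50 CPM in members or in Pi16 or Dpp4 stroma. Genes of the 10 outside those 4 passed the limit only through wild-type members, so their direction was fixed by it. With no minimum level the list median was -1.62. The median of -2.0 became 0.78 without the Cthrc1 or Nov members. It was 0.54 with at least 2 of the 6 marker genes required, and 0.43 without members carrying leukocyte RNA. Ube2c, a ubiquitin enzyme of dividing cells, had 2 UMIs in Pdgfrb-Cre members and 34 in wild-type members, and its log2 ratio of -3.50 was 0.27 without the members carrying leukocyte RNA. H19, an imprinted non-coding RNA, had 0 UMIs in Pdgfrb-Cre members and 32 UMIs in 16 wild-type members, at least 52.6-fold lower, with 21 of the 32 in members with Cthrc1. Ptn, a growth factor that binds heparin, had 4 UMIs in Pdgfrb-Cre members and 67 in wild-type members, 82.6-fold lower (30.8 to 312). It was not higher in the wild-type members with Cthrc1, at 197 CPM (16 UMIs) against 249 CPM (51 UMIs) in those without.

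Interferon response genes were lower in Pdgfrb-Cre members. Of 22 measurable genes 16 were called lower and 1 higher, with a median of -1.65. In Pdgfrb-Cre only 10 genes of the list reached 50 CPM in members or in Pi16 or Dpp4 stroma. Genes of the 22 outside those 10 passed the limit only through wild-type members, so their direction was fixed by it. With no minimum level the list median was -1.55. Ifi27l2a, an interferon-induced protein, stood at 76.6 CPM (62.9 to 92.5) in Pdgfrb-Cre members, from 34 barcodes, against 1389 CPM (1256 to 1532) in wild-type members, from 68 barcodes. Irf7, a factor that drives interferon genes, stood at 17.0 CPM in Pdgfrb-Cre against 294 CPM in wild type. Isg15, a ubiquitin-like modifier, stood at 55.3 CPM in Pdgfrb-Cre against 420 CPM in wild type. Others were level, as Ifitm3, which blocks viral entry, at 1727 CPM in Pdgfrb-Cre against 2162 CPM in wild type. The list median was -0.53 over 13 genes in Pi16 or Dpp4 stroma, -0.51 over 12 in leukocyte barcodes and 0.01 over 19 in endothelial barcodes. Those are not the same genes as the 22 measured in members. In members the median lay between -2.01 and -0.94 over 14 other settings. Within wild type 11 of 22 genes of the list were higher in members than in Pi16 or Dpp4 stroma and 0 lower, while in Pdgfrb-Cre 0 of 10 were higher and 2 lower.

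Leukocyte RNA moved with these differences. Summed over 5 class II genes of the major histocompatibility complex (MHC), which present antigen, members held 138 CPM in Pdgfrb-Cre and 959 CPM in wild type. B cell markers summed to 155 CPM in Pdgfrb-Cre and 490 CPM in wild type. T cell markers summed to 14.9 CPM in Pdgfrb-Cre and 189 CPM in wild type, and no gene of either list was at 0. Myeloid markers summed to 11.4 CPM in Pdgfrb-Cre and 126 CPM in wild type, with C1qa, C1qc and Adgre1 at 0 UMIs in Pdgfrb-Cre and Adgre1 at 0 in wild type. Without members holding at least 2 UMIs over these 4 lists, 130 members were left in Pdgfrb-Cre and 35 in wild type, and the interferon median was -1.72. Plac8, which leukocytes express as well as stroma, stood at 82.3 CPM in Pdgfrb-Cre against 829 CPM in wild type. Endothelial markers summed to 12.1 CPM in Pdgfrb-Cre (Tie1 at 0) and 73.5 CPM in wild type (none at 0). Mural markers summed to 199 CPM in Pdgfrb-Cre (none at 0) and 108 CPM in wild type (Higd1b and Cspg4 at 0). The part of these 2 cell types in any result was not tested. Mesothelial, Schwann, epithelial and red cell markers each summed to 31.5 CPM or less in either library, and muscle and tendon markers to 17.7 CPM in Pdgfrb-Cre and 38.5 CPM in wild type.

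**Figure D4:**
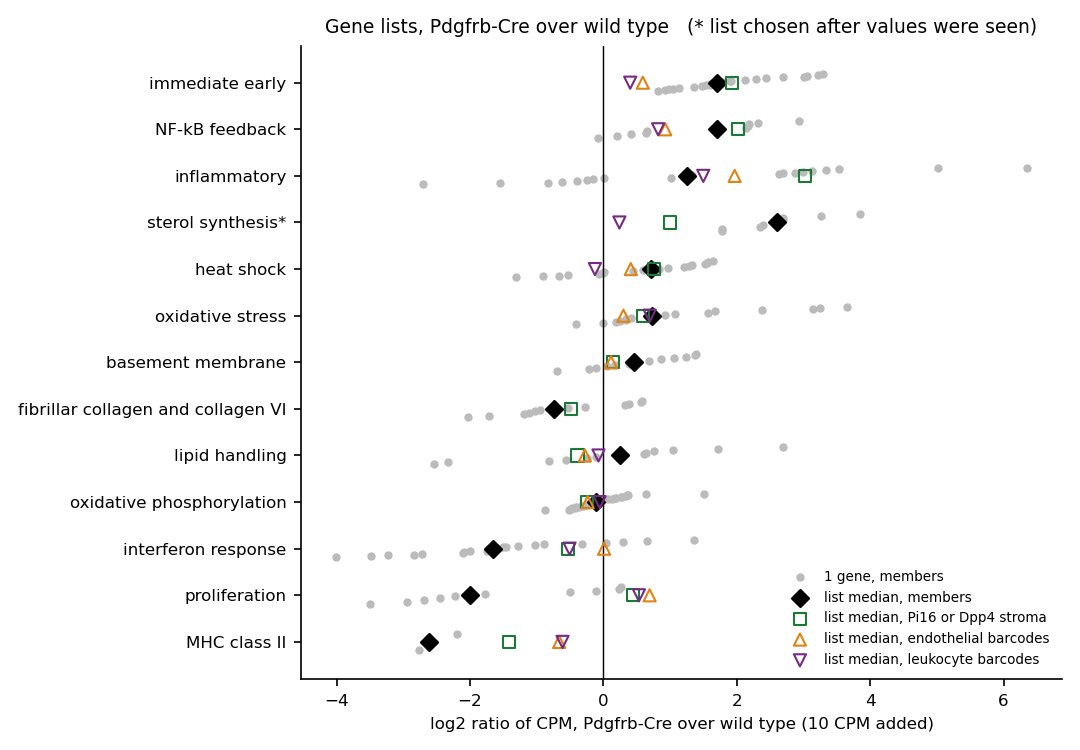
Log2 ratio of CPM, Pdgfrb-Cre over wild type, for 13 gene lists. Grey points are single genes in members, and black diamonds are list medians in members. Open symbols are medians of these lists in Pi16 or Dpp4 stroma, endothelial and leukocyte barcodes. Each median covers only the list genes that reached 50 CPM in that kind of barcode, so the genes differ between symbols. Interferon had 22 such genes in members and 13 in Pi16 or Dpp4 stroma, and sterol synthesis 9 and 1. The inflammatory median was 1.25 in members and 3.02 in Pi16 or Dpp4 stroma, and the interferon median -1.65 in members and -0.53 in that stroma; the fibrillar collagen and proliferation medians change sign without members carrying Cthrc1 or Nov.

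A further set of genes was nearly all or none between the libraries in both stromal populations; it was listed from earlier results of these data, and its direction is no independent evidence. C1rb, a duplicate of the complement protease gene C1ra, had 0 UMIs in Pdgfrb-Cre members and 56 UMIs in 34 wild-type members, at least 92.0-fold lower, and 2 UMIs in Pi16 or Dpp4 stroma of Pdgfrb-Cre against 85 in that of wild type. C1s2, a duplicate of C1s1, had 3 UMIs in Pdgfrb-Cre members and 34 in wild-type members. C1ra and C1s1 themselves were not called, with C1ra at 392 CPM in Pdgfrb-Cre against 262 CPM in wild type and C1s1 at 724 CPM in Pdgfrb-Cre against 567 CPM in wild type. How the counting divided reads between such copies was not stated. Ifi202b, of a gene cluster that varies between mouse strains, had 0 UMIs in Pdgfrb-Cre members and 42 in wild-type members, at least 69.0-fold lower. Gdpd3, a lipid phosphodiesterase that is not on that list, had 3 UMIs in Pdgfrb-Cre members and 30 in wild-type members. It was lower outside stroma too, with log2 ratios of -4.60 in leukocyte barcodes and -5.93 in endothelial barcodes.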

How the data were processed

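For each library the authors deposited raw UMI counts of genes in barcodes; per the submitters' processing notes they used Cell Ranger 3.1.0 and STAR 2.6 on mm10. Libraries followed a 3' droplet protocol (10x v3), per the labels' protocols. Gene coordinates came from GENCODE M21 (GRCm38), where 99.6% of 31053 features were found. The Pdgfra-Cre library is outside the rule and enters only the results flagged for a closer look.

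Barcodes were chosen on raw UMIs, summed per library and scaled to CPM. Ratios are log2 with 10 CPM added; genes needed 50 CPM in either group. Intervals are exact (Poisson, Clopper-Pearson, conditional binomial, scipy 1.17.1), treat UMIs as independent draws, leave out spread between barcodes and animals, and cover counting error only. With 1 library per genotype no test was made. Leukocyte barcodes had at least 2 Ptprc UMIs, endothelial barcodes at least 2 Pecam1 and Cdh5 UMIs and 0 of Ptprc, both with at most 1 stromal rule gene. No doublets were removed in the reported values; Scrublet scores (scanpy 1.11.5) served an alternative, in which the highest-scoring barcodes, 6 members in Pdgfrb-Cre and 2 in wild type, were left out. The computation was tested on simulated counts.

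Members, gene lists and alternatives were chosen with earlier results of these data known, and 2 lists (sterol synthesis, imprinted genes) and 3 alternatives after levels were seen. Named genes are the 12 highest and 12 lowest between libraries (at least 100 CPM, 20 UMIs and 10 barcodes in the higher), the 10 highest and 10 lowest against Pi16 or Dpp4 stroma in both libraries, and up to 4 per list; others named were chosen after their values were seen. Mitochondrial, ribosomal protein, predicted, Y-linked genes and Xist were not named.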

Additional observations from a re-analysis of the deposited data

Results flagged for a closer look

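The Pdgfra-Cre; Tert fl/fl library, which no comparison above used, also held barcodes that meet the rule. They were 509 of its 602 stromal barcodes, or 84.6% (81.4 to 87.3), against 29.9% in Pdgfrb-Cre and 37.7% in wild type. Members there held 151 CPM of Wt1 and 117 CPM of Tcf21, transcription factors known from visceral stroma, against 0 and 2.84 CPM in Pdgfrb-Cre members and 3.50 and 0 CPM in wild-type members. The origin of this difference was not tested.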

How the results depend on the processing

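Each genotype is 1 library, so differences between animals are not measured. Pdgfrb-Cre members held 1409250 UMIs and wild-type members 285846, and genes with few wild-type UMIs have wide intervals. Adding 50 CPM gave 194 genes higher and 110 lower between libraries, and 40 higher and 77 lower than Pi16 or Dpp4 stroma in both. Without a minimum level these counts were 643, 830, 156 and 193. Scaling without mitochondrial and ribosomal protein genes gave 423 lower, thinning to 1500 UMIs 545 higher and 655 lower, and barcodes of 2000 to 10000 UMIs 449 lower. The share of stromal barcodes in Pdgfrb-Cre was 36.9% thinned. It was 46.6% in Pdgfrb-Cre and 45.6% in wild type from 2000 to 10000 UMIs, and 25.1% in Pdgfrb-Cre and 30.3% in wild type with 0 Pi16 and Dpp4 UMIs. With 2 or more of the 6 marker genes it was 25.4% in wild type.

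Signs changed for the F3 list median of 0.65, which was -0.33 thinned and -0.071 without leukocyte-marked members, for the proliferation median (0.54, 0.78 and 0.43) and the fibrillar collagen median (0.15) as given above, and for Ube2c (0.27). The basement membrane median of 0.46 reached -0.082, the insulin-like growth factor median of -0.47 reached 0.19, complement (-0.44) 0.13, the mitochondrial genome (-0.29) 0.037, Wnt, BMP and TGF-beta (0.28) -0.015, interstitial progenitor (-0.22) 0.37, imprinted (0.11) -0.37 and nuclear oxidative phosphorylation (-0.11) 0.18. The matrix remodelling, other senescence and pan-stromal medians, all under 0.1, also crossed 0. The cause was not tested. Of 24 genes named between libraries, 21 stayed past 2-fold in all 14 settings, and of 40 ratios against Pi16 or Dpp4 stroma, 36 in all 11. Leaving out Cthrc1 or Nov members, leukocyte-marked members or the 5 deepest members was chosen after the data were seen. No paired analysis was possible because each genotype has 1 library.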

Other observations

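Insulin-like growth factor genes were lower in Pdgfrb-Cre members in 3 of 8 measurable cases and higher in 0 (median log2 ratio -0.47, and 0.19 as the mean of each barcode's CPM). Beside this count and the complement count below, 8.16% of all genes were lower and 10.6% higher. Igfbp5, a binding protein that retains the factor in matrix, stood at 522 CPM in Pdgfrb-Cre members against 1242 CPM in wild-type members, and Igfbp6 stood at 1045 CPM in Pdgfrb-Cre against 707 CPM in wild type. Of 11 complement genes 3 were lower and 0 higher (median -0.44, and 0.13 thinned to 1500 UMIs): Clu, an extracellular chaperone, at 19.2 CPM in Pdgfrb-Cre against 171 CPM in wild type, C4b, a complement component, with a log2 ratio of -1.28, and Cd55, an inhibitor of complement, at 44.7 CPM in Pdgfrb-Cre against 122 CPM in wild type.

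Of 13 Wnt, BMP and TGF-beta genes 3 were higher and 2 lower. Over all genes 10.6% were higher and 8.16% lower, which stands beside each count of this paragraph. Bmp2, an osteogenic ligand, stood at 95 UMIs in Pdgfrb-Cre members against 2 UMIs in wild-type members, a ratio of 9.63 (2.59 to 80.7). Dkk2, a Wnt antagonist, stood at 7.10 CPM in Pdgfrb-Cre against 80.5 CPM in wild type. Oxidative phosphorylation genes of the nucleus were near level, with 1 of 31 higher, 0 lower and a median of -0.11. Of 8 imprinted genes 2 were lower, H19 and Meg3, and Meg3 stood at 167 CPM in Pdgfrb-Cre against 899 CPM in wild type; 0 were higher.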
